A study of Mus musculus with 9 samples.

Results

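The 36 genes described here encode the stress sensors, chaperones, disulfide enzymes, degradation factors and translocon subunits of the endoplasmic reticulum (ER). They were taken from a list of gene symbols, each represented by probe sets annotated with exactly that 1 symbol, and make up 36 of the 19938 genes measured in mouse liver. For 34 of them the array annotation used the listed symbol, while Ero1l and Ero1lb appeared under their newer symbols, Ero1a and Ero1b. The list held 6 genes of sensing and signalling, 11 chaperones and lectins, 6 disulfide enzymes, 9 degradation genes and 4 translocon genes. OB-TUDCA mice were ob/ob animals (B6.V-Lepob/J) that received taurine-conjugated ursodeoxycholic acid (TUDCA), a bile acid known as a chemical chaperone, by gavage at 500 mg/kg, 2 times a day, over 3 weeks. OB-control mice were ob/ob animals gavaged with tap water on the same schedule, and N-control mice were wild-type C57BL/6J animals gavaged with tap water. The ob/ob mutation removes the satiety hormone leptin from every tissue, so that these mice overeat and become obese. All mice were male, 6 weeks of age when obtained, fed chow and fasted for 8 h before the liver was taken. The methods give 6 mice a group, and the arrays number 3 a group.

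All 12 hepatocyte markers were measured, and their mean log2 signal lay between 12.65 and 12.67 on OB-TUDCA arrays, between 12.51 and 12.64 on OB-control arrays and between 12.73 and 12.75 on N-control arrays. A wild-type array, N-control replicate 2, stood apart. The 21 measured genes of pancreatic acinar cells averaged 10.01 on it, with all 21 highest there, against 3.83 to 4.24 on the other 8 arrays. Plasma and B cell markers stayed between 3.42 and 3.55 on every array. Acinar cells are rich in ER, so counts over the 36 genes and called genes in comparisons with N-control are also given without that array. A whole liver sample cannot tell fewer cells of a type from less RNA per cell.

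Proteins that enter the ER are folded there by chaperones and by enzymes that form disulfide bonds, and those that fail to fold are sent back to the cytosol and degraded by the proteasome (ER-associated degradation, ERAD). When unfolded proteins accumulate, the sensors Atf6, Ern1 (IRE1) and Eif2ak3 (PERK) start the unfolded protein response, in which Atf6 and the spliced form of Xbp1 switch on genes for folding and degradation. Hepatocytes secrete most plasma proteins and depend on this machinery, and liver of obese mice is a tissue in which the response has been much studied. The arrays measured RNA levels and not the splicing of Xbp1 or the phosphorylation and cleavage that activate the sensors.

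Many of these genes carry an ER stress response element (ERSE), the site through which Atf6 and Xbp1 act. The element was searched as CCAAT, 9 bases of any kind and CCACG, on both strands, in the RefSeq promoter windows of build GRCm38.p6, which reach from 250 bases before to 50 bases after each transcription start. Of the 36 genes, 30 had a window, and Atf6, Hyou1, Manf, Derl1, Sec61a1 and Ppp1r15b had no entry. The element was present in 10 of the 30 (33.3%), against 37 of the 27025 genes with a window (0.137%). These 10 were Hspa5, Hsp90b1, Dnajc3, Calr, Canx, Creld2, Pdia6, Ero1b, Syvn1 and Derl3, and Hsp90b1 had 2 matches. The stretches of 49 bases around the element are shown for 7 of these 10 genes, chosen with their differences known, and not for Canx, Syvn1 and Derl3. They let the element be compared between genes whose differences pointed in opposite directions. Each reads 5′ to 3′ on the strand of the gene, and capitals mark the 2 fixed parts of the element, read as CCAAT then CCACG where it lies on the strand of the gene and as CGTGG then ATTGG where it lies on the opposite strand.
Hspa5 (chr2:34772010-34772058, plus strand): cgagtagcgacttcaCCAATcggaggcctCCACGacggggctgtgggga
Dnajc3 (chr14:118937812-118937860, plus strand): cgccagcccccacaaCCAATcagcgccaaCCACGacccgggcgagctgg
Creld2 (chr15:88819505-88819553, plus strand): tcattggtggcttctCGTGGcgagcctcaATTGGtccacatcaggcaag
Hsp90b1 (chr10:86705623-86705671, minus strand): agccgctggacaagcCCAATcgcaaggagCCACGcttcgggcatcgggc
Hsp90b1 (chr10:86705518-86705566, minus strand): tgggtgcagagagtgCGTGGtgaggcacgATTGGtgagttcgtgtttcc
Calr (chr8:84847060-84847108, minus strand): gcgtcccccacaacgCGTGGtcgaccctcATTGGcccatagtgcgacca
Pdia6 (chr12:17266476-17266524, plus strand): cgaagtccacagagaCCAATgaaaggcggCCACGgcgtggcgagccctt
Ero1b (chr13:12565667-12565715, plus strand): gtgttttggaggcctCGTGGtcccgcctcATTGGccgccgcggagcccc

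The element began 65 bases before the start of Hspa5, 105 bases before that of Dnajc3, 126 bases before that of Creld2 and 201 bases before that of Ero1b. It lay on the strand of the gene in Hspa5, Dnajc3 and Pdia6 and on the opposite strand in Creld2, Calr and Ero1b, while Hsp90b1 had 1 match on each strand. A related element, ERSE-II, searched as ATTGG, 1 base and CCACG, was found in Dnajb11 and Herpud1 alone among the 30 genes (6.67%), against 0.0444% of all genes. The 5 letters CCACG, which are part of both elements, occurred in 26 of the 30 windows (86.7%), against 35.5% of all genes. The Atf6 and Xbp1 motif TGACGTG, which can overlap CCACG read on the other strand, was found in the Hspa5 window (1 of 30 genes, against 2.22% of all genes). The motif TTGCATCA, of the kind bound by Atf4 with C/EBP factors, was found in the Herpud1 window (1 of 30 genes, against 1.03%). These are matches of letters, and binding was not measured.

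The first question was whether TUDCA moved these genes in obese liver. None of the 36 genes passed an adjusted p of 0.05 between OB-TUDCA and OB-control in limma, where 0.301% of all genes did (0.115% higher and 0.186% lower). Before adjustment, at p under 0.05, 8 of the 36 (22.2%) were higher in OB-TUDCA and 2 (5.56%) were lower, against 6.26% and 5.72% of all genes. In 8 of the 36 genes all 3 OB-TUDCA arrays lay above all 3 OB-control arrays, as in 7.26% of all genes, and in 0 all lay below, against 6.53%. The median difference was 0.09 on the log2 scale over the 36 genes and 0.01 over all genes, and 25 of the 36 differences were above 0, against 53.6% of all genes, with 11 below 0, against 46.3%. The count of 8 depended on single arrays. It was 4 without OB-control replicate 3 (against 5.75% of all genes) and 11 without OB-control replicate 2 (6.15%). It was 5 without OB-TUDCA replicate 2 (4.99%) or without OB-TUDCA replicate 3 (6.28%), and the median was 0.05 without the latter.

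The second question was how obese liver differed from wild-type liver. None of the 36 genes passed the adjusted threshold between OB-control and N-control, where 0.948% of all genes did (0.456% higher and 0.492% lower). Before adjustment, at p under 0.05, 11 of the 36 (30.6%) were lower in OB-control and 1 was higher, against 5.59% and 6.55% of all genes. In 12 genes (33.3%) every OB-control array lay below every N-control array, as in 6.77% of all genes, and P4hb was the 1 gene with the opposite order, which 8.49% of all genes showed. The median difference was -0.11 over the 36 genes and 0.02 over all genes, and 31 of the 36 differences were below 0, against 43% of all genes, and 5 were above 0, against 56.9%. Without the array that carried acinar RNA, none was called (0.336% of all genes), 9 of the 36 genes were lower and 1 was higher at an unadjusted p under 0.05 (5.11% and 5.74% of all genes), and the median was -0.12. Groups then lay apart with OB-control lower for 12 genes and higher for 1, against 10.7% and 14.4% of all genes, and differences were below 0 for 29 and above 0 for 7, against 42.5% and 57.5%.

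Between OB-TUDCA and N-control, 1 of the 36 genes passed the adjusted threshold. This was Pdia3, which fell, and 3.24% of all genes were called (1.35% higher and 1.89% lower). Before adjustment, at p under 0.05, 8 genes were lower in OB-TUDCA and 3 were higher, against 8.15% and 10.4% of all genes. In 9 of the 36 genes all OB-TUDCA arrays lay below all N-control arrays and in 6 all lay above, against 8.95% and 11.8% of all genes. Differences were above 0 for 16 of the 36 genes, against 59.6% of all genes, and below 0 for 20, against 40.3%. The median difference of the 36 genes was -0.02, and without N-control replicate 2 it was 0.01. Without that array none of the 36 was called, against 1.23% of all genes, and an unadjusted p under 0.05 was reached by 6 lower and 3 higher genes, against 7.47% and 9.11%. Groups then lay apart with OB-TUDCA lower for 10 genes and higher for 7, against 12.7% and 18.3% of all genes, and differences were above 0 for 20 and below 0 for 16, against 60.4% and 39.6%. The 3 comparisons share arrays, since each group enters 2 of them, so their differences are set side by side and not counted as separate evidence.

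**Figure D1:**
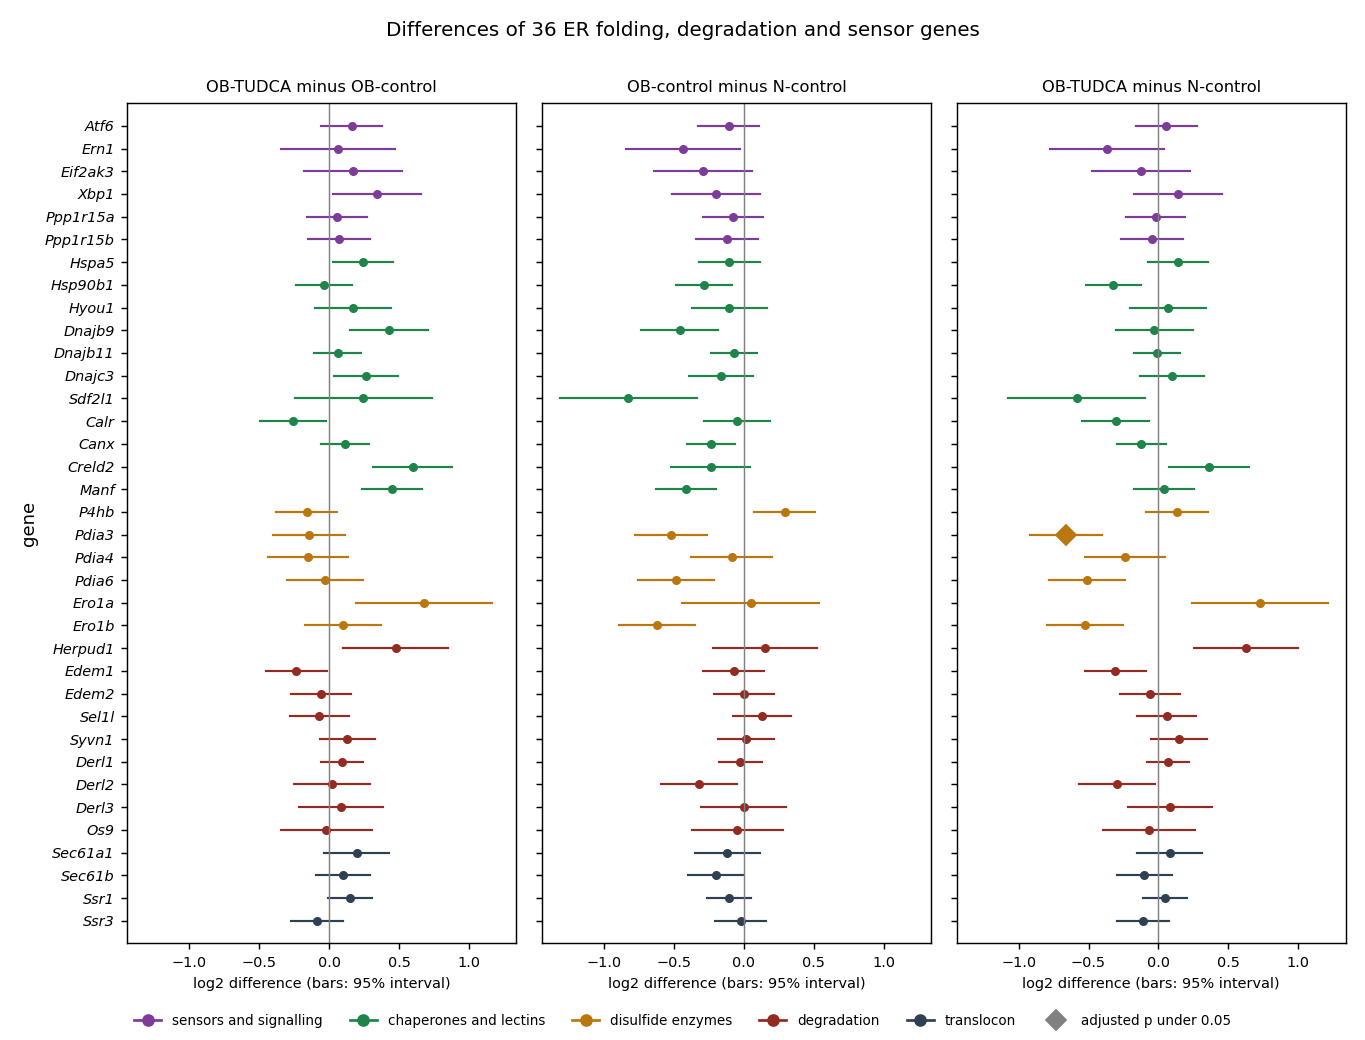
Log2 differences of the 36 genes (rows, coloured by role) in the 3 comparisons (panels), where points are fitted differences and bars their 95% intervals from limma. The large diamond marks Pdia3 in OB-TUDCA minus N-control, at -0.66, as the only difference past an adjusted p of 0.05.

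The 6 genes of sensing and signalling had differences from -0.43 to 0.34 over the 3 comparisons, and none passed the adjusted test in any. All 6 differences between OB-TUDCA and OB-control were above 0, with a median of 0.12, and all 6 between OB-control and N-control were below 0, with a median of -0.16. Between OB-TUDCA and N-control the median was -0.03. Xbp1, the transcription factor spliced by Ern1, had log2 signals of 9.15, 9.42 and 9.20 on OB-TUDCA arrays, 8.82, 9.16 and 8.78 on OB-control arrays, and 9.33, 9.13 and 8.89 on N-control arrays. OB-control replicate 2 lay within the range of the other groups, and the 3 groups overlapped. The difference between OB-TUDCA and OB-control was 0.34 ± 0.14 (SE, n = 3 each, adjusted p = 0.373 in limma), with a 95% interval from 0.02 to 0.66, and that between OB-TUDCA and N-control was 0.14 ± 0.14 (adjusted p = 0.655).

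Ern1, the sensor kinase and nuclease, had signals of 7.28, 6.70 and 7.20 on OB-TUDCA arrays, 7.18, 7.03 and 6.79 on OB-control arrays, and 7.71, 7.20 and 7.39 on N-control arrays. Every OB-control array was below every N-control array, though the gap was narrow, and OB-TUDCA overlapped both. The limma difference between OB-control and N-control was -0.43 ± 0.18 (SE, adjusted p = 0.379), and that between OB-TUDCA and N-control was -0.37 ± 0.18 (adjusted p = 0.319). Eif2ak3, the kinase that restrains translation through eIF2α, averaged 6.67 ± 0.32 in OB-TUDCA, 6.50 ± 0.17 in OB-control and 6.80 ± 0.11 in N-control (SD, n = 3 each). Its differences in limma were 0.17 ± 0.16 (SE) for OB-TUDCA minus OB-control (adjusted p = 0.718) and -0.29 ± 0.16 for OB-control minus N-control (adjusted p = 0.502).

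Atf6, the sensor that is itself a transcription factor, averaged 8.62 ± 0.18 in OB-TUDCA, 8.46 ± 0.01 in OB-control and 8.57 ± 0.09 in N-control. Its OB-control arrays lay just below all 6 others, between 8.45 and 8.47. Ppp1r15a (GADD34), which directs a phosphatase to eIF2α once the response is under way, averaged 5.47 ± 0.08 in OB-TUDCA, 5.42 ± 0.16 in OB-control and 5.49 ± 0.07 in N-control. Ppp1r15b, the constitutive counterpart, averaged 6.79 ± 0.04 in OB-TUDCA, 6.72 ± 0.15 in OB-control and 6.84 ± 0.14 in N-control. Its 2 probe sets differed from each other, at -0.25 and 0.15 between OB-TUDCA and N-control.

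The chaperones and lectins had the highest median of the 5 roles between OB-TUDCA and OB-control, at 0.24, although none of the 11 genes passed the adjusted test. Differences were above 0 for 9 of the 11, and at an unadjusted p under 0.05 there were 5 higher (Hspa5, Dnajb9, Dnajc3, Creld2 and Manf) and 1 lower (Calr), where 6.26% of all genes were higher and 5.72% lower. All 11 were below 0 between OB-control and N-control, with a median of -0.23. Between OB-TUDCA and N-control the median was -0.01, with 5 above 0 and 6 below. Without N-control replicate 2 all 11 were again below 0 between OB-control and N-control, with a median of -0.18, and 7 were above 0 and 4 below between OB-TUDCA and N-control.

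Creld2, an ER protein with disulfide isomerase activity that is secreted under ER stress, had log2 signals of 7.32, 7.43 and 7.36 on OB-TUDCA arrays, 6.58, 6.84 and 6.90 on OB-control arrays, and 6.74, 7.13 and 7.16 on N-control arrays. All 3 OB-TUDCA arrays lay above all 6 others, and OB-control and N-control overlapped. The difference between OB-TUDCA and OB-control was 0.60 ± 0.13 (SE, adjusted p = 0.0863 in limma), a ratio of 1.51, with a 95% interval from 0.31 to 0.88. Against N-control it was 0.36 ± 0.13 (adjusted p = 0.172).

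Manf, a secreted factor retained in the ER by Hspa5, had signals of 6.65, 6.94 and 6.68 on OB-TUDCA arrays, 6.38, 6.33 and 6.21 on OB-control arrays, and 6.79, 6.69 and 6.67 on N-control arrays. The 3 OB-control arrays were the lowest of the 9, and the other 2 groups overlapped. The limma differences were 0.45 ± 0.10 (SE, adjusted p = 0.0865) for OB-TUDCA minus OB-control and -0.41 ± 0.10 (adjusted p = 0.108) for OB-control minus N-control. For OB-TUDCA minus N-control the difference was 0.04, with a 95% interval from -0.18 to 0.26.

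Dnajb9 (ERdj4), a co-chaperone that brings Hspa5 to Ern1 and to ERAD substrates, had signals of 9.57, 9.73 and 9.36 on OB-TUDCA arrays, 9.12, 8.98 and 9.28 on OB-control arrays, and 9.44, 9.74 and 9.57 on N-control arrays. As with Manf, the 3 OB-control arrays were the lowest of the 9. The limma differences were 0.43 ± 0.12 (SE, adjusted p = 0.183) for OB-TUDCA minus OB-control and -0.46 ± 0.12 (adjusted p = 0.151) for OB-control minus N-control, and that for OB-TUDCA minus N-control was -0.03, with an interval from -0.31 to 0.25.

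Hspa5 (BiP, GRP78), the main Hsp70 chaperone of the ER and the classical marker of the response, had signals of 10.83, 10.99 and 10.76 on OB-TUDCA arrays, 10.69, 10.73 and 10.44 on OB-control arrays, and 10.74, 10.74 and 10.69 on N-control arrays. The OB-TUDCA arrays were the 3 highest by a narrow margin over N-control, and OB-control replicate 3 was the lowest. The differences were 0.24 ± 0.10 (SE, adjusted p = 0.349 in limma) for OB-TUDCA minus OB-control and -0.10 ± 0.10 (adjusted p = 0.734) for OB-control minus N-control. The 95% interval between OB-control and N-control ran from -0.32 to 0.11.

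Dnajc3 (p58IPK), an ER co-chaperone that also curbs Eif2ak3, averaged 11.03 ± 0.04 in OB-TUDCA, 10.77 ± 0.20 in OB-control and 10.93 ± 0.07 in N-control. Its 2 probe sets were identical in difference and SE in every comparison (0.26 for OB-TUDCA minus OB-control), so they are not read as separate measurements. Hyou1, the large Hsp70-like exchange factor of Hspa5, averaged 8.47 ± 0.17 in OB-TUDCA, 8.30 ± 0.15 in OB-control and 8.40 ± 0.16 in N-control, and Dnajb11 (ERdj3) averaged 7.71 ± 0.08 in OB-TUDCA, 7.65 ± 0.05 in OB-control and 7.72 ± 0.06 in N-control. The groups overlapped for both.

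Sdf2l1, a partner of Dnajb11, had the largest gap of the 36 genes between OB-control and N-control and also the widest scatter there. Its signals were 5.82, 5.96 and 6.07 on OB-TUDCA arrays, 5.57, 6.27 and 5.28 on OB-control arrays, and 6.33, 6.68 and 6.60 on N-control arrays. All 6 arrays of ob/ob mice lay below the 3 wild-type arrays, and OB-control replicate 2 came close to them. The limma differences were -0.83 ± 0.22 (SE, adjusted p = 0.142) for OB-control minus N-control and -0.58 ± 0.22 (adjusted p = 0.194) for OB-TUDCA minus N-control. Without OB-control replicate 2, Sdf2l1 was called in the first of these, at -1.11 (adjusted p = 0.0112), and in the second, with an adjusted p of 0.0439. N-control replicate 2, which carried acinar RNA, had the highest Sdf2l1 signal of the 9 arrays, and without that array the differences were -0.76 (adjusted p = 0.324) for OB-control minus N-control and -0.51 (adjusted p = 0.36) for OB-TUDCA minus N-control.

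Hsp90b1 (GRP94), the Hsp90 of the ER, had signals of 11.15, 11.07 and 10.93 on OB-TUDCA arrays, 11.05, 11.20 and 11.01 on OB-control arrays, and 11.41, 11.29 and 11.42 on N-control arrays. Both ob/ob groups were below wild type without overlap and overlapped each other. The difference between OB-TUDCA and N-control was -0.32 (adjusted p = 0.0928 in limma) and that between OB-control and N-control was -0.28 (adjusted p = 0.217), against -0.04 between OB-TUDCA and OB-control.

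The lectin chaperones calreticulin and calnexin, which hold glycoproteins during folding, differed in pattern. Calr averaged 10.30 ± 0.17 in OB-TUDCA, 10.56 ± 0.14 in OB-control and 10.60 ± 0.07 in N-control, with OB-TUDCA minus OB-control at -0.26 (adjusted p = 0.369 in limma). Canx averaged 11.08 ± 0.05 in OB-TUDCA, 10.97 ± 0.11 in OB-control and 11.20 ± 0.04 in N-control. All 6 Canx values of ob/ob mice lay below the wild-type values, and the difference between OB-control and N-control was -0.23 (adjusted p = 0.245).

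**Figure D2:**
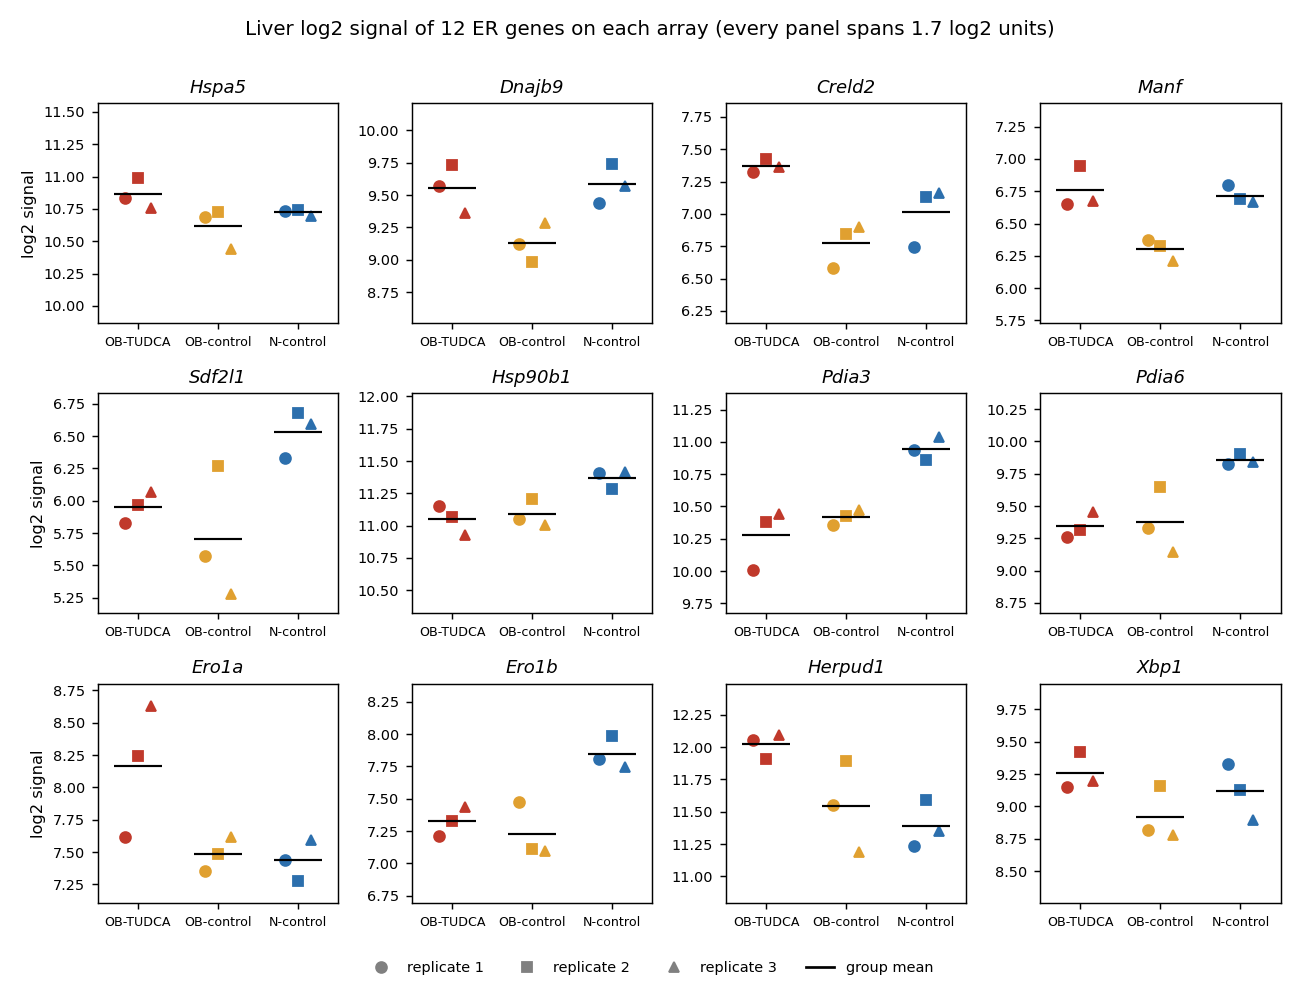
Log2 signal of 12 of the genes, 1 panel a gene, with the arrays ordered by group, where marker shapes give the replicate number, black lines the group means, and every panel spans the same range. Manf and Dnajb9 are lowest on the OB-control arrays, Creld2 is highest on the OB-TUDCA arrays (7.32 to 7.43), and Pdia3, Pdia6 and Ero1b are highest on the N-control arrays.

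Among the disulfide enzymes, 4 of 6 (Pdia3, Pdia4, Pdia6 and Ero1b) had means below wild type in both ob/ob groups, with medians over the 6 of -0.38 for OB-TUDCA minus N-control and -0.29 for OB-control minus N-control. Without N-control replicate 2 these medians were -0.33 and -0.26. Pdia3 (ERp57, Entrez gene 14827), the isomerase that works with calnexin and calreticulin on glycoproteins, had signals of 10.01, 10.38 and 10.45 on OB-TUDCA arrays, 10.36, 10.43 and 10.47 on OB-control arrays, and 10.93, 10.86 and 11.04 on N-control arrays. The wild-type arrays lay above all 6 ob/ob arrays, and the ob/ob groups overlapped. Pdia3 fell by 0.66 ± 0.11 in OB-TUDCA relative to N-control (SE, adjusted p = 0.017 in limma), a ratio of 0.631, with a 95% interval from -0.92 to -0.41. The difference between OB-control and N-control was -0.52 ± 0.11 (adjusted p = 0.0833), and that between OB-TUDCA and OB-control was -0.14, with an interval from -0.40 to 0.12.

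The Pdia3 call was close to the threshold. The adjusted p was 0.0637 in a fit of OB-TUDCA and N-control arrays alone, in which Pdia6 was called instead (adjusted p = 0.0321), and 0.0528 without OB-TUDCA replicate 2. Leaving out 1 wild-type array gave 0.0705 for replicate 1, 0.0501 for replicate 2 and 0.052 for replicate 3, with differences between -0.71 and -0.62 when these arrays were left out and -0.71 without replicate 2, the acinar array. The RefSeq window of Pdia3 held neither ERSE nor CCACG.

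Pdia6, an isomerase of the same family, had signals of 9.26, 9.31 and 9.45 on OB-TUDCA arrays, 9.33, 9.65 and 9.14 on OB-control arrays, and 9.83, 9.90 and 9.84 on N-control arrays. Both ob/ob groups lay below wild type without overlap. The differences were -0.51 (adjusted p = 0.0565 in limma) for OB-TUDCA minus N-control, -0.48 (adjusted p = 0.131) for OB-control minus N-control, and -0.03 for OB-TUDCA minus OB-control, with an interval from -0.30 to 0.24.

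The oxidases Ero1a and Ero1b, which pass oxidizing equivalents to the isomerases, had different patterns. Ero1b (Entrez gene 67475) had signals of 7.21, 7.33 and 7.44 on OB-TUDCA arrays, 7.48, 7.11 and 7.09 on OB-control arrays, and 7.81, 7.99 and 7.75 on N-control arrays. The wild-type arrays were the 3 highest. The limma differences were -0.62 ± 0.12 (SE, adjusted p = 0.0528) for OB-control minus N-control and -0.52 (adjusted p = 0.0518) for OB-TUDCA minus N-control, both just outside the threshold. Ero1b is strongly expressed in the pancreas, and N-control replicate 2 had the highest value. Without that array the difference between OB-control and N-control was -0.55 (adjusted p = 0.172 in limma).

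Ero1a (Entrez gene 50527) had signals of 7.62, 8.24 and 8.63 on OB-TUDCA arrays, 7.35, 7.49 and 7.62 on OB-control arrays, and 7.44, 7.28 and 7.59 on N-control arrays. OB-TUDCA replicate 1 was level with the highest OB-control array, while the other 2 OB-TUDCA arrays lay well above every array of both controls. The limma difference between OB-TUDCA and OB-control was 0.68 ± 0.22 (SE, adjusted p = 0.234), the largest of the 36 genes, and that between OB-TUDCA and N-control was 0.73 ± 0.22 (adjusted p = 0.114). Without OB-TUDCA replicate 1, Ero1a was called in both, at 0.949 (adjusted p = 0.0367) and 0.998 (adjusted p = 0.012).

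P4hb (PDI), the most studied isomerase and also a subunit of the triglyceride transfer protein that lipidates VLDL, was the 1 gene higher on every OB-control array than on every N-control array. It averaged 11.78 ± 0.17 in OB-TUDCA, 11.94 ± 0.04 in OB-control and 11.65 ± 0.10 in N-control. The differences were -0.16 ± 0.10 (SE, adjusted p = 0.567 in limma) for OB-TUDCA minus OB-control and 0.29 (adjusted p = 0.249) for OB-control minus N-control. Pdia4 (ERp72) averaged 8.17 ± 0.03 in OB-TUDCA, 8.32 ± 0.12 in OB-control and 8.41 ± 0.27 in N-control, and its 2 probe sets gave -0.38 and -0.09 between OB-TUDCA and N-control. Between OB-control and N-control they gave -0.18 and 0.005, and the groups overlapped.

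The 9 degradation genes showed no common direction. Their medians were 0.02 for OB-TUDCA minus OB-control, 0.00 for OB-control minus N-control (0.05 without N-control replicate 2) and 0.06 for OB-TUDCA minus N-control (0.01 without it), and none passed the adjusted test. Herpud1, a membrane scaffold of the degradation complex and a sensitive target of the response, had log2 signals of 12.06, 11.91 and 12.10 on OB-TUDCA arrays, 11.55, 11.89 and 11.19 on OB-control arrays, and 11.24, 11.59 and 11.35 on N-control arrays. The OB-TUDCA arrays were the 3 highest, OB-control replicate 2 lay just below them, and OB-control spanned the wild-type range. The limma difference was 0.48 ± 0.17 (SE, adjusted p = 0.279) for OB-TUDCA minus OB-control and 0.63 ± 0.17 (adjusted p = 0.083) for OB-TUDCA minus N-control, against 0.15 ± 0.17 (adjusted p = 0.782) for OB-control minus N-control. The difference between OB-TUDCA and N-control was called once OB-control replicate 2 (adjusted p = 0.0389) or OB-control replicate 3 (adjusted p = 0.0413) was left out of the shared variance.

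Edem1, a lectin that takes misfolded glycoproteins to degradation, was in the opposite order. It averaged 9.16 ± 0.13 in OB-TUDCA, 9.39 ± 0.13 in OB-control and 9.46 ± 0.08 in N-control, with every OB-TUDCA array below every N-control array. The limma differences were -0.23 ± 0.10 (SE, adjusted p = 0.377) for OB-TUDCA minus OB-control and -0.31 ± 0.10 (adjusted p = 0.135) for OB-TUDCA minus N-control. Its relative Edem2 averaged 7.24 ± 0.08 in OB-TUDCA, 7.29 ± 0.12 in OB-control and 7.29 ± 0.12 in N-control.

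The ubiquitin ligase Syvn1 (HRD1) and its partner Sel1l form the core of the retrotranslocation complex. Syvn1 averaged 7.66 ± 0.06 in OB-TUDCA, 7.53 ± 0.13 in OB-control and 7.51 ± 0.10 in N-control, and Sel1l averaged 9.32 ± 0.08 in OB-TUDCA, 9.39 ± 0.03 in OB-control and 9.26 ± 0.17 in N-control. All of their differences were under 0.15 in size. Os9, a lectin of the same complex, averaged 9.68 ± 0.21 in OB-TUDCA, 9.70 ± 0.26 in OB-control and 9.75 ± 0.09 in N-control.

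Of the derlins, membrane proteins of the degradation channel, Derl2 was the only one with an unadjusted p under 0.05. It averaged 8.71 ± 0.01 in OB-TUDCA, 8.69 ± 0.11 in OB-control and 9.01 ± 0.25 in N-control, and OB-control minus N-control was -0.32 ± 0.12 (SE, adjusted p = 0.318 in limma). Derl1 averaged 9.12 ± 0.07 in OB-TUDCA, 9.03 ± 0.02 in OB-control and 9.05 ± 0.02 in N-control. Derl3, a derlin found mainly in secretory tissues such as pancreas, averaged 4.67 ± 0.06 in OB-TUDCA, 4.58 ± 0.25 in OB-control and 4.59 ± 0.18 in N-control, near the median of all probe sets of each array (4.50 to 4.58), so little can be read from its differences.

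The 4 translocon genes, through which new proteins enter the ER, had differences from -0.20 to 0.20 over the 3 comparisons. Sec61a1, the channel itself, averaged 9.77 ± 0.17 in OB-TUDCA, 9.57 ± 0.11 in OB-control and 9.69 ± 0.07 in N-control, with differences of 0.20 ± 0.10 (SE, adjusted p = 0.494 in limma) for OB-TUDCA minus OB-control and -0.12 ± 0.10 (adjusted p = 0.712) for OB-control minus N-control. Ssr1, a subunit of the translocon-associated complex, averaged 9.08 ± 0.05 in OB-TUDCA, 8.93 ± 0.07 in OB-control and 9.04 ± 0.02 in N-control. Its 3 OB-control arrays were the lowest of the 9, with a difference of 0.15 ± 0.07 (SE, adjusted p = 0.443 in limma) for OB-TUDCA minus OB-control. Sec61b averaged 6.26 ± 0.07 in OB-TUDCA, 6.16 ± 0.12 in OB-control and 6.36 ± 0.08 in N-control, with differences of -0.20 ± 0.09 (SE, adjusted p = 0.397 in limma) for OB-control minus N-control and -0.10 ± 0.09 (adjusted p = 0.599) for OB-TUDCA minus N-control. Ssr3 averaged 10.06 ± 0.13 in OB-TUDCA, 10.15 ± 0.01 in OB-control and 10.17 ± 0.06 in N-control, and OB-TUDCA minus N-control was -0.11 ± 0.08 (SE, adjusted p = 0.526 in limma).

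Across the 36 genes OB-control was the group with the lowest mean for 22 (61.1%), against 28.1% of all genes, and the group with the highest mean for 2 (P4hb and Sel1l), against 31.5% of all genes. OB-TUDCA had the highest mean for 14 of the 36 (38.9%), near the 41.5% of all genes, and N-control for 20 (55.6%), against 27% of all genes. The 36 genes split evenly where OB-control was lowest, with 11 genes highest in OB-TUDCA (among them Creld2, Manf, Hspa5, Xbp1 and Ssr1) and 11 highest in N-control (among them Dnajb9, Sdf2l1, Ero1b and Ern1), or 30.6% each, where 15.9% and 12.2% of all genes had these orders. In 9 genes (25%, against 14.8% of all genes) OB-TUDCA was lowest and N-control highest, and these included Pdia3, Pdia6, Hsp90b1, Calr and Edem1. Without N-control replicate 2, OB-control was again lowest for 22 genes, against 27.1% of all genes, with 14 of them highest in OB-TUDCA (15.1% of all genes) and 8 highest in N-control (11.9%). N-control then had the highest mean for 15 genes (41.7%, against 27.4% of all genes) and OB-TUDCA for 17 (47.2%, against 41.8%), and 7 genes (19.4%, against 15.5%) were lowest in OB-TUDCA and highest in N-control.

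Single arrays carried part of this. OB-control replicate 3 held the lowest value of the 9 arrays for 15 of the 36 genes. The share of all genes lowest on that array is not given here. There 31 of the 36 were below their own 9-array mean, as were 10891 of all 19938 genes. The median deviation was -0.16 over the 36 genes and -0.01 over all genes. On the other OB-control arrays the median deviation of the 36 genes was -0.05 and 0.00. Without OB-control replicate 3, the comparison of OB-control with N-control had unadjusted p under 0.05 in 9 lower and 2 higher genes. Of all genes 5.12% were lower and 6.25% higher there, and the median of the 36 was -0.08. N-control replicate 2 was the highest of the 3 wild-type arrays for 16 of the 36 genes and the lowest for 7, and its median difference from the mean of the other 2 was 0.04. It was the highest of all 9 arrays for 7 of the 36 (Ppp1r15a, Dnajb9, Sdf2l1, Canx, Pdia6, Ero1b and Ssr3). Shares of all genes for these counts are not given here either.

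**Figure D3:**
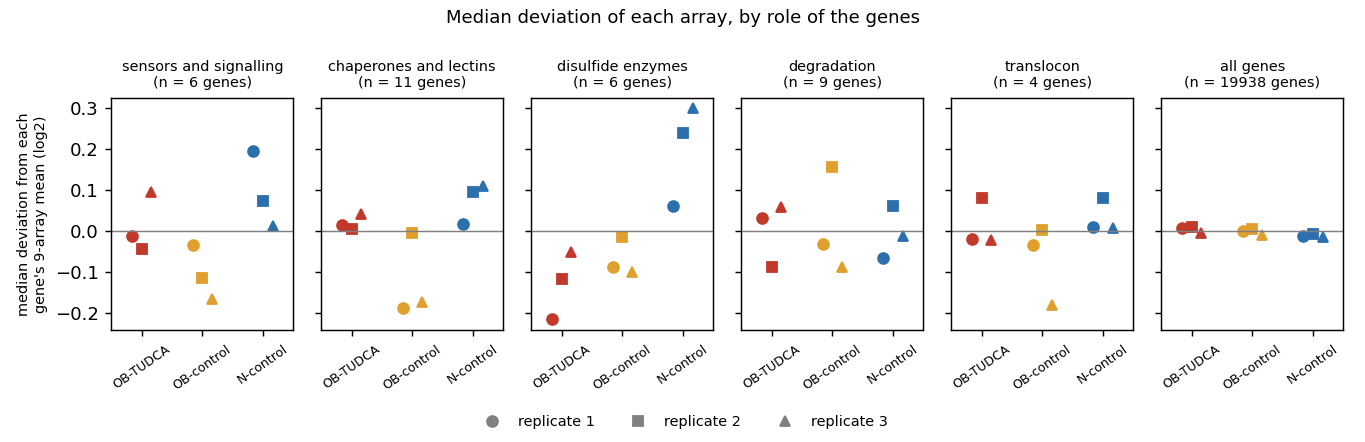
Median deviation of the genes of each role from their own 9-array mean (log2, y axis) on each array, with all 19938 genes at the right. For the chaperones and lectins 2 of the 3 OB-control arrays are lowest (-0.19 and -0.17), and the disulfide enzymes are highest on the 3 N-control arrays (0.06, 0.24 and 0.30).

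Genes with and without the ERSE overlapped in range. For OB-TUDCA minus OB-control the median was 0.11 over the 10 genes with a match and 0.06 over the 20 without, and the genes with a match ran from -0.26 (Calr) to 0.60 (Creld2). For OB-control minus N-control the medians were -0.20 and -0.08, and 9 of the 10 genes with a match and 16 of the 20 without were below 0. For OB-TUDCA minus N-control they were -0.02 and -0.06. Creld2, Pdia6 and Ero1b, which share the element, had OB-TUDCA minus N-control differences of 0.36, -0.51 and -0.52, and Dnajb9 and Sdf2l1 had no ERSE match. The grouping by motif was made after the values were known and was not tested.

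**Figure D4:**
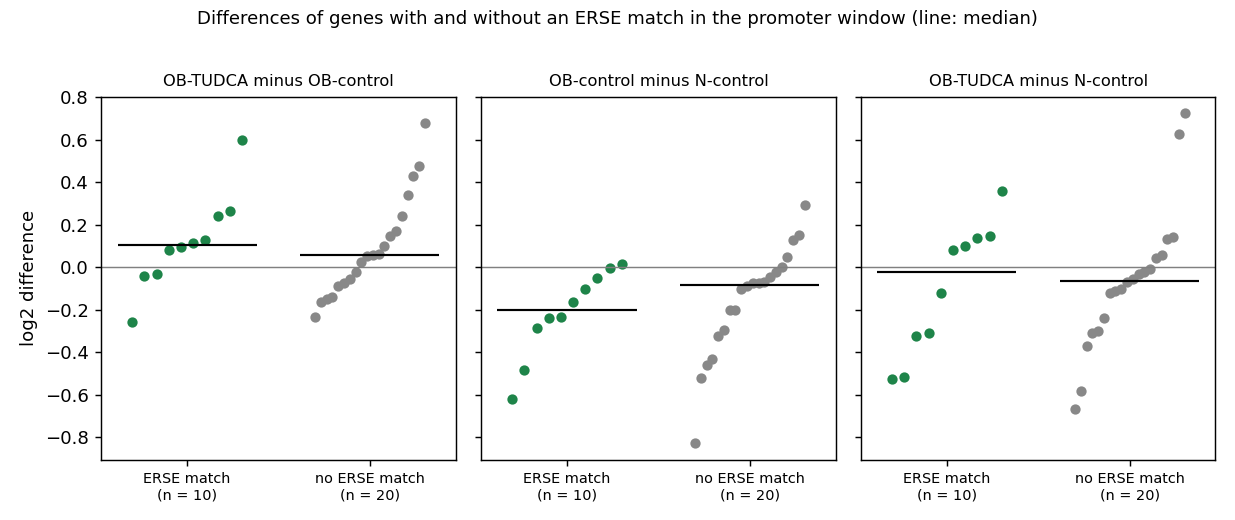
Log2 differences of the 10 genes with an ERSE match and the 20 without, in the 3 comparisons, where each point is a gene and lines are medians. The ranges overlap in every panel, with medians of 0.11 and 0.06, -0.20 and -0.08, and -0.02 and -0.06.

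Over the 9 arrays the other 35 genes did not follow Hspa5 as a block. The median Pearson r with Hspa5 was 0.18, and 11 of the 35 were above 0.5, against a median of 0.07 and 13.8% of all genes. The closest were Ssr1 (r = 0.92), Xbp1 (0.80), Manf (0.80) and Dnajc3 (0.74). With group means removed the median was 0.23 and 11 of the 35 were above 0.5, against 0.07 and 18% for all genes. Sec61b then stood at 0.92, Ssr1 at 0.88, Manf at 0.79, Xbp1 at 0.63 and Dnajc3 at 0.48, and Eif2ak3 and Ppp1r15a were lowest, both at -0.74. The arrays share groups and processing, so these values are descriptive.

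Of 4 further lists of ER genes, few members were called. Among 35 other folding factors and 28 other degradation factors none passed the adjusted test in any of the 3 comparisons, and 1 gene each was called among 28 other targeting and translocation factors and 24 other stress signalling genes. Both calls were between OB-TUDCA and N-control, 1 of 28 and 1 of 24, where 3.24% of all genes were called. For OB-TUDCA minus OB-control, an unadjusted p under 0.05 was reached by 5 higher and 2 lower folding factors, 1 higher and 3 lower degradation factors, 3 higher and 1 lower translocation factors, and 4 higher and 1 lower signalling genes, beside 6.26% higher and 5.72% lower among all genes. For OB-control minus N-control it was reached by 3 higher and 8 lower folding factors, 3 higher and 2 lower degradation factors, 1 higher and 6 lower translocation factors, and 1 higher and 2 lower signalling genes, beside 6.55% and 5.59%. In that comparison lower genes outnumbered higher ones among the folding and the translocation factors. For OB-TUDCA minus N-control it was reached by 7 higher and 8 lower folding factors, 1 higher and 7 lower degradation factors, 3 higher and 4 lower translocation factors, and 5 higher signalling genes with 0 lower, beside 10.4% and 8.15%. Without N-control replicate 2, the lower translocation factors between OB-control and N-control numbered 1 (5.11% of all genes), the lower folding factors there 6, and folding factors between OB-TUDCA and N-control 3 higher and 5 lower (9.11% and 7.47% of all genes). The lower signalling genes between OB-control and N-control then rose in number, to 4 of 24.

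Srprb, the membrane anchor of the signal recognition particle receptor, had signals of 6.81, 6.80 and 6.94 on OB-TUDCA arrays, 6.40, 6.40 and 6.53 on OB-control arrays, and 6.07, 6.23 and 6.50 on N-control arrays. It rose by 0.58 ± 0.11 in OB-TUDCA relative to N-control (SE, adjusted p = 0.0234 in limma), and its difference from OB-control was 0.41 ± 0.11 (adjusted p = 0.16). The call in OB-TUDCA against N-control was lost without OB-TUDCA replicate 2 (adjusted p = 0.0745), OB-TUDCA replicate 3 (adjusted p = 0.0732), N-control replicate 1 (adjusted p = 0.0876) or N-control replicate 2 (0.56, adjusted p = 0.0813). It was also lost in a fit of the arrays of both groups alone (adjusted p = 0.0727), with the acinar mean as a covariate (adjusted p = 0.0733), and in the methods' t-test after adjustment (0.279).

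Sesn2, a stress-induced target of Atf4 and p53, had signals of 6.54, 6.45 and 6.66 on OB-TUDCA arrays, 5.80, 6.07 and 6.07 on OB-control arrays, and 5.33, 5.98 and 5.89 on N-control arrays. All 3 OB-TUDCA arrays lay above the other 6. It rose by 0.82 ± 0.16 in OB-TUDCA relative to N-control (SE, adjusted p = 0.0294 in limma), and its difference from OB-control was 0.57 ± 0.16 (adjusted p = 0.181). The call in OB-TUDCA against N-control was lost without OB-TUDCA replicate 1 (adjusted p = 0.0619), 2 (adjusted p = 0.0851) or 3 (adjusted p = 0.0923) or N-control replicate 1 (adjusted p = 0.0516), and without N-control replicate 2 it held at 0.94 (adjusted p = 0.0447). It was lost in a fit of the arrays of both groups alone (adjusted p = 0.085) and in the methods' t-test after adjustment (0.315).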

How the data were processed

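The 9 livers, 3 a group, were profiled on the Affymetrix Mouse Gene 1.0 ST array. The authors summarized each probe set as a log2 signal by RMA, using Affymetrix Expression Console, whose version is not given in the sources used here, and these deposited values were used without further normalization. RMA makes the arrays' distributions alike and so removes differences shared by all genes. Arrays give no read depth, and the number of arrays limits the precision. Of 35556 probe sets, 21789 carried 1 symbol and were averaged per symbol to 19938 genes. The 1621 probe sets that name more than 1 gene and the 12146 that name no gene were not used.

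Group means of the 9 arrays were fitted in limma 3.58.1 (R 4.3.3) with eBayes, which gave 6 residual and 3.33 prior degrees of freedom, and p-values were Benjamini-Hochberg adjusted over all 19938 genes within each comparison. The script was tested on simulated data. Intervals are 95% intervals of single genes, not adjusted for their number. The labels call the arrays of a group biological replicates. No pair of arrays held identical values.

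Every one of the 36 genes was named with its group levels. Differences with SE and adjusted p were given for those past the threshold and for the 2 largest in each role and comparison. Further differences were added after their values were seen. Of the 4 other lists, called genes were named. The genes and lists were chosen with earlier results of these data known. The alternatives tried were the genes of lowest signal left out, quantile normalization once more, median centring, a variance prior with trend, array weights, only the groups compared, the acinar mean as covariate, the replicate number as a block, each array left out, and the methods' t-test and fold limits. The methods name the t-test in their general statistics. They selected changed genes on the arrays by significance analysis of microarrays (SAM) together with fold change, and SAM was not among these alternatives. Counts under the listed symbols only, unadjusted counts by setting, counts and orders without N-control replicate 2, the settings of called pathway genes, and the promoter motif groups were added after seeing the data. Promoter windows came from RefSeq, GRCm38.p6. The build behind the array annotation is not given in the sources used here.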

Additional observations from a re-analysis of the deposited data

How the results depend on the processing

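The sign was followed for 30 differences, those called and the 2 largest in each role and comparison. No setting turned it except by leaving out an array. Other differences were not followed, and some near 0 turned. Between OB-TUDCA and N-control, 5 of the 11 chaperones and lectins were above 0, and 7 after quantile normalization once more. The median of the 36 genes there went from -0.02 to 0.01. With an array left out, Eif2ak3 ranged over -0.00898 to 0.295 for OB-TUDCA minus OB-control (lowest without OB-TUDCA replicate 3), and Herpud1 over -0.0248 to 0.329 for OB-control minus N-control (lowest without OB-control replicate 2), and neither was called with all arrays. Of the 36 genes, those called between OB-TUDCA and OB-control numbered 0 with all arrays, 4 at an unadjusted p under 0.05 of the methods' t-test (Creld2, Dnajb9, Manf and Ssr1), and 0 to 1 with an array left out (Ero1a without OB-TUDCA replicate 1). Between OB-control and N-control they numbered 0 with all arrays, 1 with low-signal genes left out or with median centring (Ero1b), 3 with array weights (Ero1b, Pdia3 and Pdia6), 8 with the methods' t-test, 2 by the methods' fold limits (Ero1b and Sdf2l1), and 0 to 2 with an array left out. Those were Pdia3 without OB-TUDCA replicate 1, Ero1b without OB-control replicate 1, and Pdia6 and Sdf2l1 without OB-control replicate 2. Between OB-TUDCA and N-control they numbered 1 with all arrays, 3 with low-signal genes left out, with median centring or with array weights (Ero1b, Pdia3 and Pdia6), 1 with only the groups compared (Pdia6 in place of Pdia3), 2 with the trended prior (Ero1b and Pdia3), 9 with the methods' t-test, 0 after its Benjamini-Hochberg adjustment (Pdia3 at 0.267), and 0 to 4 with an array left out, with 4 (Herpud1, Pdia3, Pdia6 and Sdf2l1) without OB-control replicate 2. In these the cause was not tested. At an unadjusted p under 0.05 of the methods' t-test, 3.53% of all genes were higher and 3.58% lower between OB-TUDCA and OB-control. Between OB-control and N-control these shares were 4.48% and 3.79%, and between OB-TUDCA and N-control 6.33% and 5.75%. Totals over all genes are given below for part of the settings. Counts without such a total are not read as a result about the 36 genes.

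Over all genes, the 60 called between OB-TUDCA and OB-control became 131 with low-signal genes left out, 97 with quantile normalization once more, 0 with only the groups compared or with the acinar covariate, 1418 with the methods' t-test and 0 after its adjustment, 286 by fold limits, and 0 to 135 with an array left out. The 189 between OB-control and N-control became 358 with array weights, 65 with only the groups compared, 72 with the acinar covariate, 1649 with the methods' t-test and 1 after its adjustment, 342 by fold limits, and 60 to 266 with an array left out. The 646 between OB-TUDCA and N-control became 345 with only the groups compared, 322 with the acinar covariate, 2410 with the methods' t-test and 0 after its adjustment, and 193 to 788 with an array left out.

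With the replicate number as a block, 0, 0 and 1 of the 36 genes and 60, 189 and 871 of all genes were called in OB-TUDCA minus OB-control, OB-control minus N-control and OB-TUDCA minus N-control. The totals of 60 and 189 equal those without the block, yet the p-values differed. Unadjusted p under 0.05 covered 7.57% higher and 6.36% lower genes for OB-TUDCA minus OB-control (6.26% and 5.72% without the block). For OB-control minus N-control it covered 7.77% and 6.19% (6.55% and 5.59% without the block). Deviations from the group means correlated between -0.08 and 0.21 over 9 same-numbered pairs. Of these 4 were over 0.1, among them the 3 pairs of replicate 3, so not every pair passed 0.1, and the labels do not say that a number marks a shared batch. In 15 of 18 comparisons of an array with another group the same number correlated best, and in both other groups for 6 of 9 arrays, which is a hint from the data and not from the design.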

Other observations

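Several of the genes had exactly repeated values on arrays of different groups. Ppp1r15a was at 5.47 on OB-TUDCA replicate 1, OB-control replicate 1 and N-control replicate 3, and Edem2 was at 7.29 on OB-TUDCA replicate 1, OB-TUDCA replicate 3 and N-control replicate 3.

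Markers of the other liver cell types were also summarized by array. The 8 Kupffer cell markers averaged between 6.87 and 7.46 on OB-TUDCA arrays, between 6.76 and 7.12 on OB-control arrays and between 6.82 and 7.09 on N-control arrays. The 6 stellate cell markers averaged between 7.26 and 7.49 on OB-TUDCA arrays, between 7.16 and 7.23 on OB-control arrays and between 7.14 and 7.17 on N-control arrays, and the 6 endothelial markers averaged between 7.42 and 7.52 on OB-TUDCA arrays, between 7.26 and 7.55 on OB-control arrays and between 7.38 and 7.49 on N-control arrays. Their part in the differences of the ER genes was not tested.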
